A study of Mus musculus with 6 samples.

Results

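Homeobox genes were described as a class in mouse macrophages with and without depletion of S-adenosylhomocysteine hydrolase (SAHH). The members were all rows of the gene table that carry Homeobox as their transcription factor family, whether expressed or not, which gave 232 of 54532 genes. Of these, 229 are annotated as protein-coding, 2 as processed pseudogenes and 1 as a transcribed processed pseudogene. RNA came from 3 control libraries, called shControl in the titles and WT under genotype, and from 3 SAHH-KO libraries, whose genotype is given as SAHH knockdown. Both groups are labelled as primary peritoneal macrophages drawn out by thioglycollate and taken at 4 days, and all 6 libraries come from cells given interferon-γ at 2 ng/mL with lipopolysaccharide at 10 ng/mL for 8 h, so no value describes resting cells. The labels also enter macrophage as a cell line. The labels do not say how SAHH was removed or depleted, from which animals the cells came, or whether the 3 libraries of a group are separate cultures, so the p-values measure only the spread between these libraries, which may be technical.

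A homeodomain is a DNA-binding fold of helices that reads short AT-rich sites, and genes that encode one are named for the body-plan mutants in which they were found. Hox genes stand in 4 clusters, are switched on in a nested order along the body axis in the embryo, and in blood mark stem and progenitor cells. Polycomb complexes hold silent Hox genes in histone H3 lysine 27 methylation and MLL-type complexes keep active ones open through lysine 4 methylation. SAHH clears S-adenosylhomocysteine, the product that inhibits the methyltransferases behind both marks. TALE proteins (PBX, MEIS, PKNOX) bind DNA beside Hox proteins, and the ceramide synthases CERS2 to CERS6 carry a homeodomain-like stretch but work as membrane enzymes of sphingolipid synthesis.

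The libraries held 15540442 to 17748745 reads assigned to genes, recovered from the FPKM (fragments per kilobase, with library size scaled out). Ahcy, the gene of SAHH, stood at 25.8, 22.6 and 24.4 FPKM in control and at 5.51, 5.50 and 6.23 FPKM in SAHH-KO, a log2 fold change of -1.90 (SE 0.0873, adjusted p = 1.44e-06), although Ahcy and its near-copy Gm4737, which fell alike, may share reads. Macrophage markers were high, with Cd68 at 550 to 654 FPKM and Csf1r at 86.0 to 115 FPKM, whereas Mertk had 0 to 0.0139 FPKM. Of 4 markers of resident peritoneal macrophages, Gata6 and Timd4 had 0 reads and Cd209b 1 read over the 6 libraries, and Icam2 was at 1.35 to 1.85 FPKM in control and 0.631 to 1.26 FPKM in SAHH-KO and was called lower (log2 fold change -0.50, adjusted p = 0.0224). The sum of 9 macrophage markers was 8340 to 8650 FPKM in control and 9320 to 10600 FPKM in SAHH-KO. Of the 7 tested, 4 were called higher, beside 26.4% of all genes tested. The 5 mesothelial markers were at 0, and the summed T cell, mast cell, fibroblast and epithelial markers stayed at or below 0.0966 FPKM in every library. Summed B cell markers were at 0 to 0.136 FPKM in control and 0.218 to 0.37 FPKM in SAHH-KO. Of 7 neutrophil markers 4 had 0 reads, and the sum of the list was 4.76 to 5.66 FPKM in control and 0.503 to 0.82 FPKM in SAHH-KO. S100a8 made up most of it in control, at 4.13 to 5.10 FPKM. Endothelial markers summed to 0.0504 to 0.273 FPKM. The part of these lists in the results was not tested. In RNA from bulk cells, fewer cells that use a gene and less of its RNA per cell cannot be told apart.

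Most homeobox genes were silent in both groups. A gene was called silent in a group where it had fewer than 3 reads in each of the 3 libraries, on where it reached 1 FPKM in at least 2 of them, and trace where it did neither. By that count 179 members (77.2%) were silent in both groups, and 139 (59.9%) had 0 reads in all 6 libraries. Among all genes 69% were silent in both, among protein-coding genes 43.3%, and among the 1237 genes of other transcription factor families 32.6%. The shares with 0 reads were 58.3%, 33.1% and 22.6% in these sets. For the members at 0 reads, the level that 3 reads would have given lay between 0.0152 and 0.562 FPKM, with a median of 0.0845 FPKM, so lower levels were not detectable at this depth. A further 29 members (12.5%) were at trace level in at least 1 group and on in neither, and 16 (6.90%) were on in both. Trace genes made up 11.6% of all, 14.2% of protein-coding and 21.9% of other transcription factor genes, and genes on in both 17.6%, 39.7% and 40.6%.

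Few of the 232 members crossed the line between the groups. Only 16 (6.90%) were on in both, beside 17.6% of all genes, 39.7% of protein-coding genes and 40.6% of the other transcription factor genes. The shares that follow are of all genes in a set, silent ones included, and not of the expressed ones. In SAHH-KO alone, 5 members (2.16%) were on, against 1.01% of all genes, 1.39% of protein-coding genes and 2.67% of the other transcription factor genes. They were Shox2, Hoxb5, Hmx3, Cers4 and Zfhx2. In the other direction 3 members (1.29%) were on in control only, among them Pbx3 and Hmx2, against 0.768%, 1.35% and 2.26% in the same sets. Without control replicate 1, 1 member was lost. Groups were free of overlap in 4 of the 5 gained members (1.72% of 232, beside 0.737% of all genes, 1.17% of protein-coding genes and 1.86% of the other transcription factor genes). The same held for 2 of the 3 lost members (0.862%, beside 0.565%, 1.14% and 1.62%). Zfhx2 overlapped, and its change of state rests on values close to 1 FPKM. Pbx3 was lost with all SAHH-KO values just under 1 FPKM, and Hmx3 and Hmx2 had control values on both sides of it. With the line at 0.5 FPKM, Shox2 and Hoxb5 were still gained and Hmx2 was still lost. Hmx3, Cers4, Zfhx2 and Pbx3 were then on in both groups. Below the line of 1 FPKM, 7 members went from silent to trace (Hoxa7, Lhx2, Hoxa3, Hoxb2, Irx5, Barhl1 and Dlx1) and 3 from trace to silent (Hoxc4, Dlx4 and Obox3). The control libraries each had 18 to 22 members at or above 1 FPKM, and the SAHH-KO libraries 21 to 23.

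**Figure D1:**
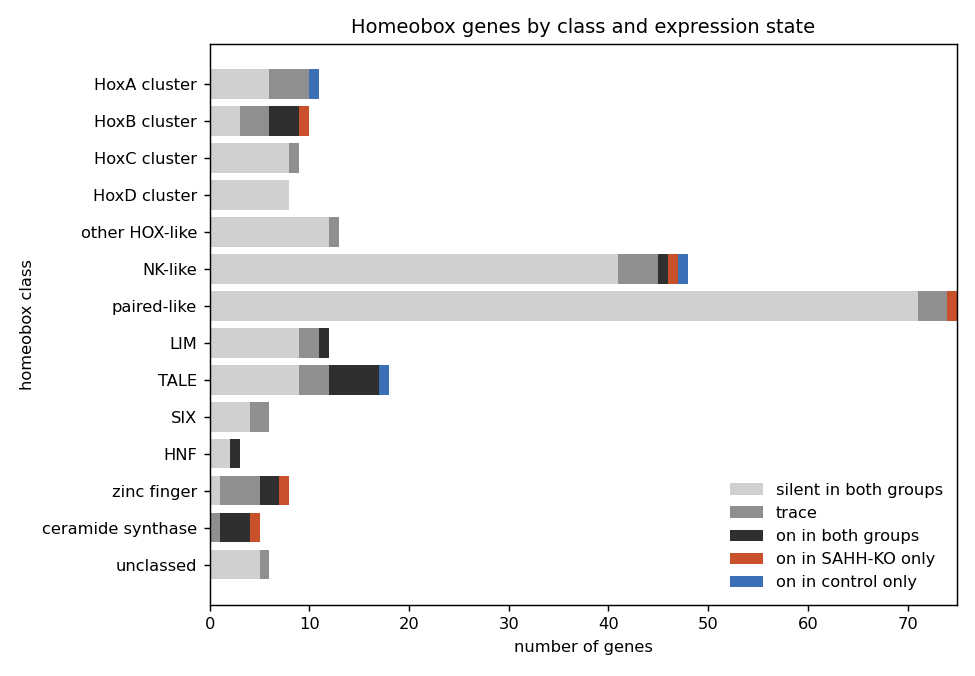
Number of homeobox genes (x axis) in each homeobox class (y axis) by expression state over 3 control and 3 SAHH-KO libraries, with bars stacked by state. The paired-like class holds 75 genes, of which 71 were silent in both groups, while no ceramide synthase gene was silent in both.

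The silent share was uneven between classes. The 33 Rhox genes that carry the family label, reproductive homeobox genes of testis, ovary and placenta from a cluster on the X chromosome, were silent in both groups, with 2 reads between them in all 6 libraries. Rhox5 of the same cluster carries no label, is not a member, and was on in control at 2.19 to 3.01 FPKM. Of the 12 Obox, Dux and Cphx genes, which act in eggs and early embryos, 11 were silent and Obox3 had 3 reads in 1 control library. Many of these genes are near-identical copies, and the sources used here do not give how reads that fit several copies were counted. Organ-forming factors were also at 0 reads, among them Cdx2 of the gut, Nkx2-5 of the heart, Nkx2-1 of lung and thyroid, and Msx1 and Msx2 of limb and face. The pluripotency factor Nanog had 3 reads and the pancreatic factor Pdx1 had 1 read over the 6 libraries. Hoxa9 had 0 reads and its partner Meis1 had 1 read, a pair known from blood progenitors and leukaemia.

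Across the 4 Hox clusters the reads were concentrated in HoxB. Of 38 labelled cluster genes 25 were silent in both groups, 8 were at trace level, 3 were on in both, 1 was gained and 1 was lost. HoxB took 90.78% of the 3124 reads on all of them. Its summed level was 10.3, 10.7 and 12.0 FPKM in control and 17.2, 16.6 and 17.2 FPKM in SAHH-KO, with no overlap between the groups. The 11 HoxA genes together had 47, 52 and 25 reads in control and 51, 57 and 48 reads in SAHH-KO, which overlapped. HoxC had 8 reads in all, every one on Hoxc4 in control libraries, and the 8 HoxD genes had 0 reads in each library, although 62.3% of the exon bases of Hoxd3 are shared with other annotated genes, so its 0 is uncertain. Hoxd4 carries no family label and is not a member, and both of its rows also had 0 reads.

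Promoter sequences are shown for 3 HoxB genes that stand for the states seen in the cluster: Hoxb8, which went from a trace to near 1 FPKM, Hoxb4, which was on in both groups, and Hoxb1, which was silent in both. Each is the 250 bases before the RefSeq transcript start on GRCm38.p6, printed 5′ to 3′ along the gene, with CpG dinucleotides in capitals.
Hoxb8, chr11:96281655-96281904, plus strand: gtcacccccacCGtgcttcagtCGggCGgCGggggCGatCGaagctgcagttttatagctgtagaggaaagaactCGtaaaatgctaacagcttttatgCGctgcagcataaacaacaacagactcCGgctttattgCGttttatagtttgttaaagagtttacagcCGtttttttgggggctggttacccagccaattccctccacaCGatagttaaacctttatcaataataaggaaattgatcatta
Hoxb4, chr11:96318017-96318266, plus strand: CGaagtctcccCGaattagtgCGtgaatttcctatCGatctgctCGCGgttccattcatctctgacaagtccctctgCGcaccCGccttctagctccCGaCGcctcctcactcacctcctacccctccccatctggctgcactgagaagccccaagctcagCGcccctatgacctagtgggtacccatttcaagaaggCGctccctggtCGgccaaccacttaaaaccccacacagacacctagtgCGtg
Hoxb1, chr11:96365508-96365757, plus strand: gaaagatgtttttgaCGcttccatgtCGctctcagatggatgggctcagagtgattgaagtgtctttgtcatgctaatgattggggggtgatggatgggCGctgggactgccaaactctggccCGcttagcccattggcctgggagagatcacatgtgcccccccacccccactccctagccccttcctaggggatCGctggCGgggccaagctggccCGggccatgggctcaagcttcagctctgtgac
These stretches hold 12, 14 and 7 CpG dinucleotides, respectively. Hoxb8 is the only one of the 3 with TATAAA or GGGCGG in the 300-base window that runs to 50 bases past the start, read on both strands.

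HoxB genes lie on the plus strand of chromosome 11 in the order Hoxb13, Hoxb9, Hoxb8, Hoxb7, Hoxb6, Hoxb5, Hoxb4, Hoxb3, Hoxb2, Hoxb1. The genes with reads in quantity, Hoxb8 to Hoxb3, span 66026 bases. Hoxb7 (chr11:96286623-96290162) had the highest level, at 4.83, 6.20 and 5.33 FPKM in control and 5.92, 6.21 and 6.19 FPKM in SAHH-KO. Hoxb4 (chr11:96318267-96321638), a factor that expands blood stem cells when overexpressed, was at 3.03, 2.95 and 4.03 FPKM in control and 3.91, 4.07 and 4.03 FPKM in SAHH-KO. For both genes the groups overlapped and the difference was not called, with log2 fold changes of 0.14 (SE 0.0978, adjusted p = 0.247) for Hoxb7 and 0.22 (SE 0.111, adjusted p = 0.135) for Hoxb4. Without control replicate 3, Hoxb4 was called higher, at 0.33.

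Their neighbours differed. Hoxb6 (chr11:96292476-96301569) was at 1.95, 1.06 and 2.16 FPKM in control and 4.04, 3.85 and 3.90 FPKM in SAHH-KO, so that every SAHH-KO library was above every control library. Hoxb5 (chr11:96303336-96306121) went from 0.386, 0.153 and 0.321 FPKM to 1.64, 1.30 and 1.70 FPKM and was the 1 Hox gene to gain the on state. Both rose by the test, Hoxb6 with a log2 fold change of 0.88 (SE 0.157, adjusted p = 0.00186) and Hoxb5 with 0.99 (SE 0.122, adjusted p = 0.000256), on the log2(FPKM + 1) scale that understates the change of low genes. As ratios of group means these were 2.28-fold and 5.39-fold. Hoxb5 passed the FPKM filter through the SAHH-KO libraries alone. Antisense Hoxb5os shares 3.59% of the exon bases of Hoxb5 and rose too, from 0.438 to 0.686 FPKM in control to 1.99 to 3.36 FPKM in SAHH-KO (log2 fold change 1.18, adjusted p = 0.000318), having passed the FPKM filter in SAHH-KO alone. The sources used here do not give whether counting used strand, so reads of Hoxb5 and Hoxb5os in the shared bases cannot be told apart.

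Hoxb8 (chr11:96281905-96285315), known for holding myeloid progenitors in an immature state when expressed by force, was under the filter of the FPKM test. It had 1, 4 and 1 reads in control (0.0227, 0.0926 and 0.0212 FPKM) and 50, 25 and 28 reads in SAHH-KO (1.14, 0.623 and 0.690 FPKM). The groups were far apart for reads this few, and 1 of the 3 SAHH-KO libraries reached 1 FPKM. On recovered reads, limma's voom fit gave Hoxb8 a log2 fold change of 4.06 (SE 0.555, adjusted p = 3.79e-05). Hoxb8 met the read minimum of that fit in the SAHH-KO libraries alone, and its control mean of 0.0455 FPKM was under the 0.0670 FPKM that 3 reads would give, so no ratio of means is given and the size of the fitted change is uncertain. No exon base of Hoxb8, Hoxb7, Hoxb6 or Hoxb4 is shared with another annotated gene.

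Hoxb3 (chr11:96323326-96347930) also rose in the voom fit, by a log2 fold change of 1.80 (SE 0.405, adjusted p = 0.00200), from 0.0702, 0.230 and 0.171 FPKM to 0.452, 0.448 and 0.657 FPKM. The antisense gene Hoxb3os covers 52.9% of the exon bases of Hoxb3 and was itself at 0 FPKM in control and 0.0309 to 0.0572 FPKM in SAHH-KO. As the strand setting of the counting is not given, the level of Hoxb3 and the size of its rise are uncertain. Called and uncalled genes were interleaved along the chromosome, with Hoxb8, Hoxb6, Hoxb5 and Hoxb3 higher and Hoxb7 and Hoxb4 between them not called. At the ends of the cluster, Hoxb2 had 3, 1 and 1 reads in SAHH-KO and 0 in control, Hoxb1 and Hoxb13 had 1 read each in all, and Hoxb9 had 0. Hoxb3os also covers 27.3% of the exon bases of Hoxb2, so the few reads of Hoxb2 are uncertain too.

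**Figure D2:**
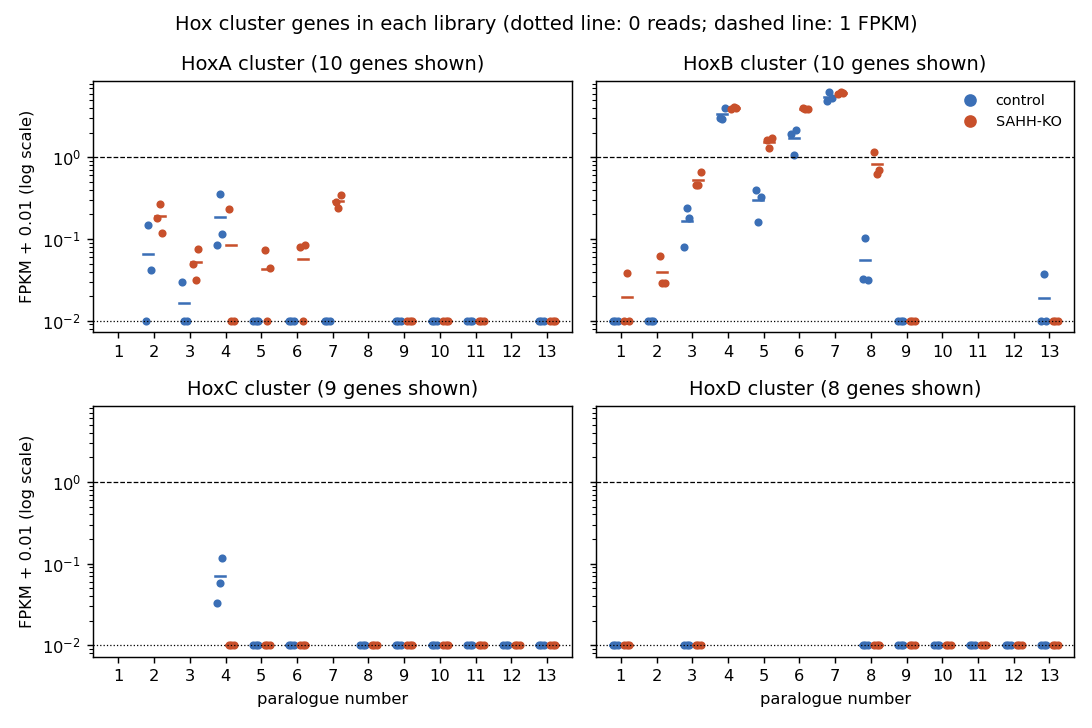
Level of labelled Hox genes (y axis, FPKM + 0.01, log scale) by paralogue number (x axis) in the 4 clusters, with a point per library, a bar at the group mean, and lines at 0 reads and at 1 FPKM. Of the 37 genes plotted, HoxB4 to HoxB8 have libraries at or above 1 FPKM, and in HoxB the groups separate at paralogues 3, 5, 6 and 8, while HoxD stays on the line of 0 reads throughout. They also separate at paralogue 2 of HoxB, but on at most 3 reads per library.

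In HoxA, Hoxa7 (chr6:52214491-52221854), a patterning factor of the trunk, had 0 reads in each control library and 13, 10 and 15 reads in SAHH-KO (0.272, 0.228 and 0.339 FPKM). Taking 3 reads per control library as the floor, Hoxa7 was at least 4.55-fold higher in SAHH-KO, and the voom fit, whose read minimum it met in SAHH-KO alone, called it (adjusted p = 2.09e-06). Hoxaas3, antisense over 20.4% of the exon bases of Hoxa7, had at most 0.0211 FPKM and 0 reads in SAHH-KO.

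Other HoxA genes were at the edge of detection. Hoxa3 had 2, 0 and 0 reads in control and 4, 2 and 6 in SAHH-KO, Hoxa2 had 0, 4 and 1 against 5, 7 and 3, and Hoxa4 had 2, 9 and 3 against 6, 0 and 0. Hoxa5 and Hoxa6 had 3 and 2 reads over all libraries, each of them in SAHH-KO. The posterior genes Hoxa9, Hoxa10, Hoxa11 and Hoxa13 had 0 reads. Hoxc4 had 1, 2 and 5 reads in control and 0 in SAHH-KO. The annotated gene Gm28308 shares 15.0% of the exon bases of Hoxa2 and 8.01% of those of Hoxa3. None of these genes passed the read minimum of either fit, and they are given as values.

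In the NK-like class of 48 genes, 41 were silent in both groups. Hhex (chr19:37434810-37440731), needed for liver and blood development, was the 1 member on in both, at 12.2, 13.0 and 10.9 FPKM in control and 11.2, 12.8 and 11.5 FPKM in SAHH-KO, and was not called (log2 fold change -0.02, SE 0.0941, adjusted p = 0.856). The neighbours Hmx3 and Hmx2, inner ear and hypothalamus factors that lie on the plus strand of chromosome 7 with 3847 bases between them, moved in opposite directions. Hmx3 (chr7:131542867-131544925) was at 1.02, 0.796 and 0.768 FPKM in control and 2.56, 2.57 and 2.81 FPKM in SAHH-KO. Hmx2 (chr7:131548773-131558014) was at 1.17, 0.664 and 1.04 FPKM in control and 0.243, 0.347 and 0.364 FPKM in SAHH-KO. The groups did not overlap for either gene.

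The gain of Hmx3 was called by the FPKM test (log2 fold change 0.97, SE 0.10, adjusted p = 9.87e-05), and the fall of Hmx2 by the voom fit alone, since it was under the FPKM filter (log2 fold change -1.56, SE 0.332, adjusted p = 0.00142). In the voom fit Hmx3 had a log2 fold change of 1.61 (SE 0.258), and neither gene shares exon bases with another gene. The read numbers were small, 19 to 63 per library for Hmx3 and 13 to 63 for Hmx2. The 250 bases before each RefSeq start are shown because these adjacent genes changed in opposite directions and their upstream sequences differ in CpG content. As before, CpG is in capitals.
Hmx3, chr7:131542713-131542962, plus strand: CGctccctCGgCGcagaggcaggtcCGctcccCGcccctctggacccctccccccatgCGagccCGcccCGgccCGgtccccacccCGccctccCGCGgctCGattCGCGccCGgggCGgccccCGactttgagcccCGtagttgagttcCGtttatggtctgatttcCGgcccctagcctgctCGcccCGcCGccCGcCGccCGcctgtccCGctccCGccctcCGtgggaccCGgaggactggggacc
Hmx2, chr7:131548507-131548756, plus strand: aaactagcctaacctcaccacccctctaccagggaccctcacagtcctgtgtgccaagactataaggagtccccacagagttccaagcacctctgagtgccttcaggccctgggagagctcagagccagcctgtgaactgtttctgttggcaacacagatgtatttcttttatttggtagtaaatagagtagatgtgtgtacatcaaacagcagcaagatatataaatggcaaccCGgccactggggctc
The Hmx3 stretch holds 31 CpG dinucleotides and the Hmx2 stretch 1. RefSeq places the Hmx3 start 96 bases and the Hmx2 start 16 bases from the gene start in the deposited table.

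Hlx, an NK-like factor of gut mesenchyme and of interferon-γ-producing T cells, was at 0.236, 0.188 and 0.0491 FPKM in control and 0.581, 0.635 and 0.485 FPKM in SAHH-KO, and rose in the voom fit (log2 fold change 2.01, SE 0.486, adjusted p = 0.00335). Gbx1, of the other HOX-like genes, had 3, 8 and 5 reads in control and 16, 27 and 12 in SAHH-KO (voom log2 fold change 1.81, SE 0.486, adjusted p = 0.00639). Neither gene had 10 reads in any control library, so both entered the voom fit through the SAHH-KO libraries. Dlx4, Dlx1 and Barhl1 had at most 6 reads in any library.

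The paired-like class was the largest, with 71 of 75 genes silent in both groups and Shox2 the single gene on in either. Shox2 (chr3:66971727-66981771), a factor of limb growth and of the cardiac pacemaker, had 13, 19 and 25 reads in control (0.234, 0.350 and 0.422 FPKM) and 196, 131 and 184 reads in SAHH-KO (3.56, 2.60 and 3.61 FPKM). Every SAHH-KO library was far above the highest control library, and the ratio of means was 9.70. The FPKM test gave a log2 fold change of 1.67 (SE 0.128, adjusted p = 1.97e-05), the largest among the members it tested, and the voom fit 3.27 (SE 0.297, adjusted p = 8.68e-07). Shox2 passed the FPKM filter through the SAHH-KO libraries alone, so it could enter that test only as a gene that differs. Rsrc1 on the opposite strand shares 4.62% of the exon bases of Shox2 and was not called, at 2.49 to 3.10 FPKM in control and 2.58 to 2.80 FPKM in SAHH-KO. The stretch upstream of the RefSeq start is shown for this gene because its gain was the largest among members in the FPKM test, with CpG in capitals.
Shox2, chr3:66981772-66982021, minus strand: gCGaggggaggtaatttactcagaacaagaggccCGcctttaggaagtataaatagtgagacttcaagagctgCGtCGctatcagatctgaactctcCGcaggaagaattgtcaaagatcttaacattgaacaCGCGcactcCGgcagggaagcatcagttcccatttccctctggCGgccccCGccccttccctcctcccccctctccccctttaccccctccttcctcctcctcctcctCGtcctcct
It holds 11 CpG dinucleotides. The paired-like genes at trace level, Prrx2, Esx1 and Obox3, had at most 11 reads in a library.

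**Figure D3:**
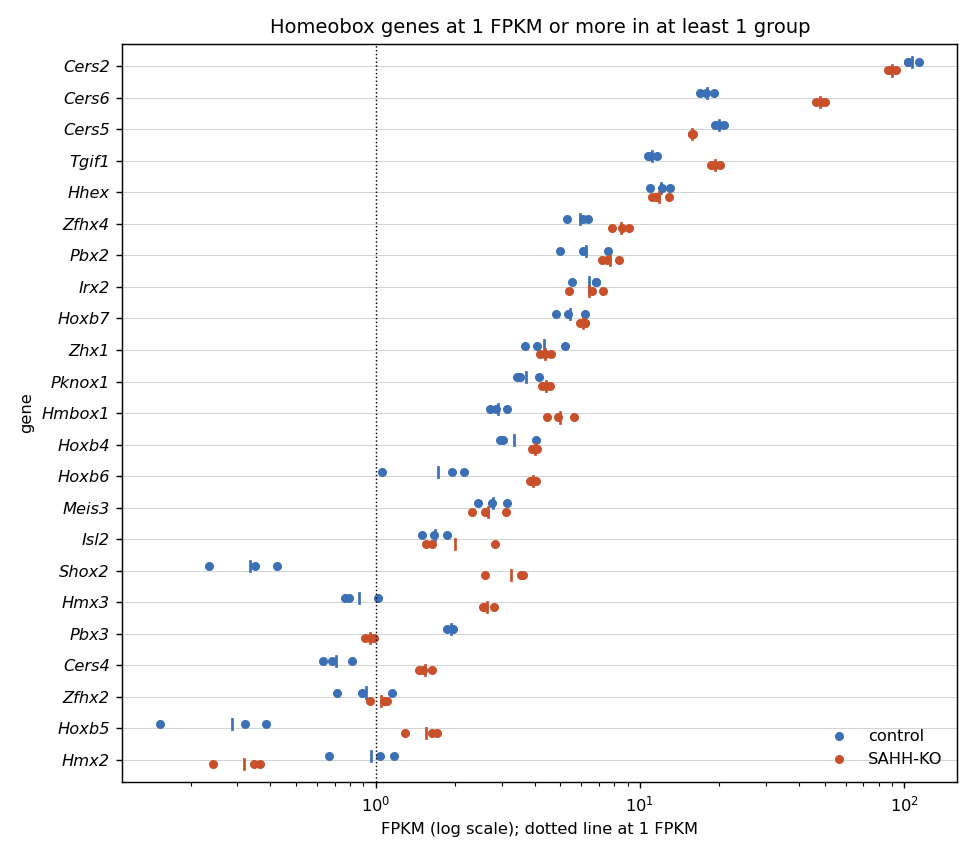
FPKM (x axis, log scale) of 23 homeobox genes that were on in at least 1 group (y axis), with a point for each of 3 control and 3 SAHH-KO libraries and a tick at each group mean. Shox2 and Hoxb5 lie wholly to the left of 1 FPKM in control and wholly to the right in SAHH-KO, while Zfhx2 straddles the line in both groups.

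The TALE class, the partners of Hox proteins on DNA, had the most transcription factors on, with 5 of 18 on in both groups, 1 lost and 9 silent. Tgif1 (chr17:70844205-70853546), a repressor of transforming growth factor-β targets, was at 11.7, 10.7 and 11.0 FPKM in control and 20.0, 18.5 and 19.3 FPKM in SAHH-KO. It rose by a log2 fold change of 0.75 (SE 0.0770, adjusted p = 9.87e-05). Pbx3 (chr2:34171457-34373142), a Hox cofactor, was at 1.95, 1.95 and 1.87 FPKM in control and 0.954, 0.914 and 0.989 FPKM in SAHH-KO, and it fell by a log2 fold change of -0.58 (SE 0.0909, adjusted p = 0.000911), or to 0.495 of the control mean. No library value of either gene fell in the range of the other group. Pbx3 passed the FPKM filter through the control libraries alone.

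No other TALE gene was called. Pbx2 was at 7.595, 4.996 and 6.116 FPKM in control and 7.48, 7.22 and 8.37 FPKM in SAHH-KO (log2 fold change 0.28, SE 0.134, adjusted p = 0.112). Pknox1 was at 3.41, 4.14 and 3.53 FPKM against 4.43, 4.25 and 4.56 FPKM, without overlap but not called (log2 fold change 0.21, SE 0.0925, adjusted p = 0.0886). Neither cofactor passed the threshold, although Pbx2 did without control replicate 1 (0.41) and Pknox1 without control replicate 2 (0.28). Irx2 had 5.52 to 6.84 FPKM in control and 5.39 to 7.25 FPKM in SAHH-KO, and Meis3 had 2.44 to 3.14 FPKM and 2.31 to 3.11 FPKM. Their log2 fold changes of 0.00 for Irx2 (SE 0.122) and -0.04 for Meis3 (SE 0.116) were smaller than their errors. Meis2 stayed at 0.191 to 0.350 FPKM across all libraries and was not called by the voom fit. Tgif2 shares 61.6% of its exon bases with genes on the opposite strand and had at most 11 reads, so its level is uncertain. Irx5 had at most 4 reads in a library.

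In the LIM class, Lhx2 was low in control and rose in the voom fit. Lhx2 (chr2:38339281-38369733), a LIM factor of forebrain and hair follicle stem cells, had 1, 2 and 1 reads against 12, 11 and 13 (0.0127 to 0.0278 FPKM against 0.164 to 0.192 FPKM), a voom log2 fold change of 2.92 (SE 0.487, adjusted p = 0.000209). The groups did not overlap. Every control library was under the floor of 3 reads and only SAHH-KO met the voom minimum, so no ratio of means is given and the fitted size is uncertain. Lhx9 of the same class had 0 to 11 reads per library, and Six5 had 2 to 13. The LIM gene Isl2 was on in both groups, at 1.498, 1.864 and 1.658 FPKM against 2.82, 1.56 and 1.63 FPKM, with 1 high SAHH-KO library and no call. Without that library its log2 fold change turned from 0.15 to -0.04.

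Among the zinc-finger and HNF classes, Zfhx4 (chr3:5218526-5415857), a large neural and muscle factor, was at 6.37, 6.07 and 5.29 FPKM in control and 9.06, 7.83 and 8.58 FPKM in SAHH-KO (log2 fold change 0.46, SE 0.0954, adjusted p = 0.00408). Hmbox1 (chr14:64811600-64949871), a telomere-binding protein, was at 3.13, 2.71 and 2.86 FPKM against 4.88, 4.46 and 5.64 FPKM (log2 fold change 0.62, SE 0.102, adjusted p = 0.00125). Both rose, with every SAHH-KO value above every control value. Zhx2, a repressor of liver genes, was at 0.214 to 0.275 FPKM in control and 0.474 to 0.773 FPKM in SAHH-KO and rose in the voom fit (log2 fold change 1.42, SE 0.310, adjusted p = 0.00161). Zhx1 at 3.68 to 5.22 FPKM, Zhx3 at 0.807 to 1.11 FPKM, Zfhx2 at 0.714 to 1.15 FPKM and Homez at 0.121 to 0.378 FPKM over all libraries were not called. Adnp was at 0.627 to 1.26 FPKM, but 82.1% of its exon bases are also annotated in Gm20716, which had 0 reads, so its level is uncertain. AW822073, an unclassed gene with at most 13 reads, shares 47.4% of its 50-base words with Duxf3 and is uncertain as well.

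The ceramide synthases took 60.76% of the 117760 reads on all members. Cers6 (chr2:68861441-69114282), the enzyme of C16 ceramide, was at 17.8, 19.1 and 16.9 FPKM in control and 48.28, 46.48 and 49.96 FPKM in SAHH-KO. It rose by a log2 fold change of 1.38 (SE 0.0789, adjusted p = 4.33e-06), a 2.69-fold difference in means that was far larger than the spread of either group. Cers4 (chr8:4493026-4531680) was at 0.686, 0.632 and 0.812 FPKM in control and at 1.47, 1.51 and 1.63 FPKM in SAHH-KO (log2 fold change 0.57, SE 0.0996, adjusted p = 0.00169). These were the synthases that rose. Cers4 passed the FPKM filter through the SAHH-KO libraries alone.

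Cers2 and Cers5 fell. Cers2 (chr3:95314791-95323599), which makes very long chain ceramides, was the highest member of all, at 103, 114 and 103 FPKM in control and 93.3, 89.4 and 86.6 FPKM in SAHH-KO. The difference was small, a log2 fold change of -0.25 (SE 0.0768, adjusted p = 0.0251), and the call was lost without control replicate 3 (-0.27) and without SAHH-KO replicate 2 (-0.25) or 3 (-0.22). Cers5 (chr15:99734881-99772885) was at 19.2, 20.8 and 20.0 FPKM in control and 15.9, 15.8 and 15.7 FPKM in SAHH-KO (log2 fold change -0.32, SE 0.0730, adjusted p = 0.00628). Cers3, the skin and testis synthase, had reads in 1 library of each group only. In control the order of mean level was Cers2, Cers5, Cers6, Cers4, with the lowest Cers5 library at 19.2 FPKM beside the highest Cers6 library at 19.1 FPKM. In SAHH-KO the order was Cers2, Cers6, Cers5, Cers4, with no overlap between neighbours.

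Counted over the class, the FPKM test covered 23 members, those with at least 1 FPKM in at least 3 of the 6 libraries, and called 9 higher and 3 lower in SAHH-KO. Without control replicate 3, 1 was lower. That is 52.2% called, beside 53.3% of all 10362 genes tested, of which 26.4% were higher and 26.8% lower. By direction 39.1% of the tested members were higher and 13.0% lower. The higher ones were Shox2, Cers6, Hoxb5, Hmx3, Hoxb6, Tgif1, Hmbox1, Cers4 and Zfhx4, and the lower ones Pbx3, Cers5 and Cers2. Of the 23, 4 members (Cers4, Pbx3, Shox2 and Hoxb5) passed the filter through the group where they were higher, so these counts describe expressed members and not the 209 that were not tested. The other 19 members had 6 higher and 2 lower, beside 2511 higher and 2619 lower of 9951 such genes over the whole table. The median log2 fold change was 0.21 over the tested members and -0.01 over all genes tested. TPM scaling gave 14 higher and 4 lower of 31 tested members, beside 18.2% higher and 33.8% lower over all genes. Scaling by assigned reads, chosen after seeing the data, gave 9 and 3 of 23 members, beside 19.5% and 37.9%. In 13 of the 23 the groups did not overlap (56.5%, beside 62.3% of all genes tested).

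The voom fit on recovered reads, with at least 10 reads in at least 3 libraries, covered 36 members and called 17 higher and 4 lower (58.3%, beside 53.6% of 11960 genes, of which 26.6% were higher and 26.9% lower). Of the 17, 6 (among them Hoxb8, Hoxa7, Lhx2, Hlx and Gbx1) met the read minimum only in SAHH-KO, where they are high, so they could enter only as genes that differ. The other 30 members had 11 higher and 4 lower, and neither split describes the members that were not tested. All 12 members called by the FPKM test were called in the same direction. Of the 13 members it added, 8 were higher (among them Hoxb8, Hoxa7, Lhx2, Hlx, Gbx1, Hoxb3 and Zhx2), 1 was lower (Hmx2) and 4 were not called. In 22 of the 36 the groups did not overlap (61.1%, beside 61% of all genes in this fit). The median log2 fold change was 0.42 over its members, the same with Hoxa7 at its lower bound, and 0.00 over its genes, and the 6 members that passed through SAHH-KO alone are part of the first.

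**Figure D4:**
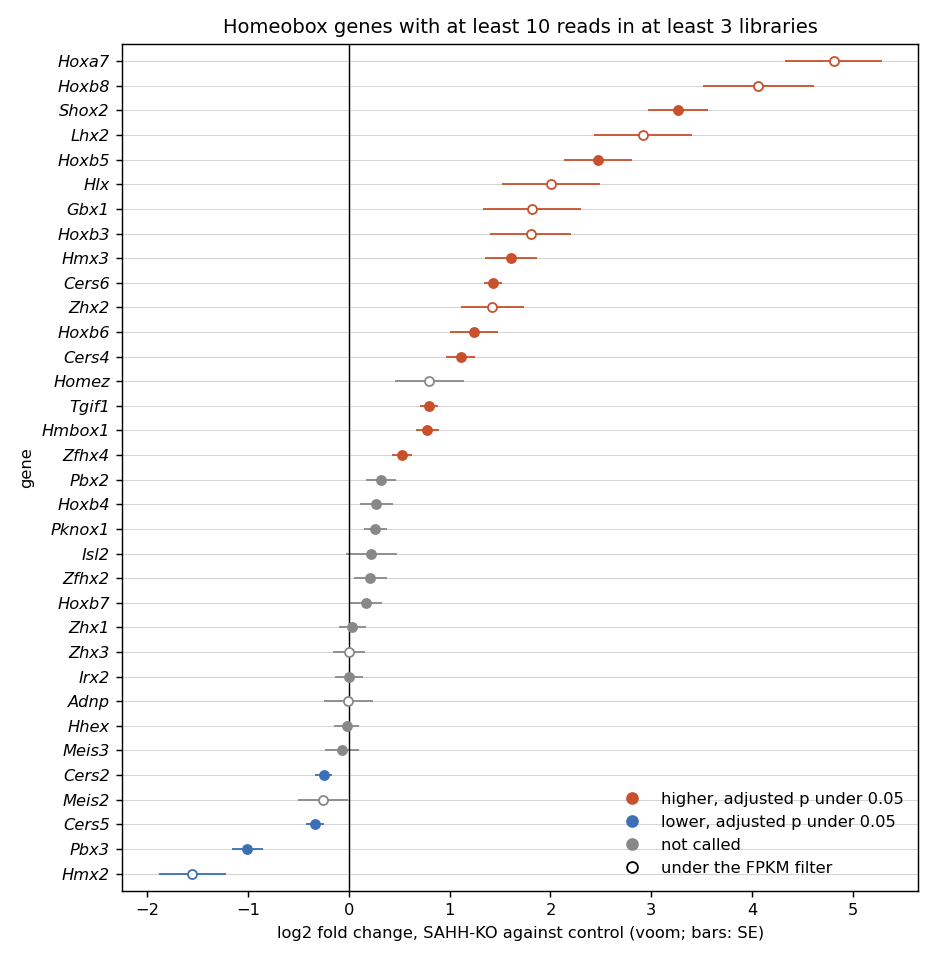
Log2 fold change between SAHH-KO and control (x axis, voom fit, bars show the SE) of 34 homeobox genes with at least 10 reads in at least 3 libraries (y axis), some of which met that minimum only in SAHH-KO. Filled points are the 22 of them that also passed the FPKM filter, colours mark 16 called higher and 4 called lower, and the genes with the largest changes are mostly open points, that is genes at low level.

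Promoter windows from RefSeq, 300 bases each, were matched for 157 of the 232 members. The start nearest to the gene start in the deposited table was taken, with no limit on distance. Some starts lay far away, such as 772000 bases for Zfhx3, 158309 for Obox1 and 15461 for Hoxc4, and are included in the shares below. A window was counted as CpG-rich where the ratio of observed to expected CpG was at least 0.6. That held for 80.0% of 15 members on in at least 1 group, 55.0% of 20 at trace level and 42.6% of 122 silent in both, beside 35.8% of all 32851 windows. The silent members were mixed: 0% of 32 Rhox, Obox and Cphx windows were CpG-rich, against 53.3% of 15 silent Hox cluster genes and 58.7% of the 75 others. No Dux gene had a matched window. Silent members thus had CpG-rich as well as CpG-poor windows.

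**Figure D5:**
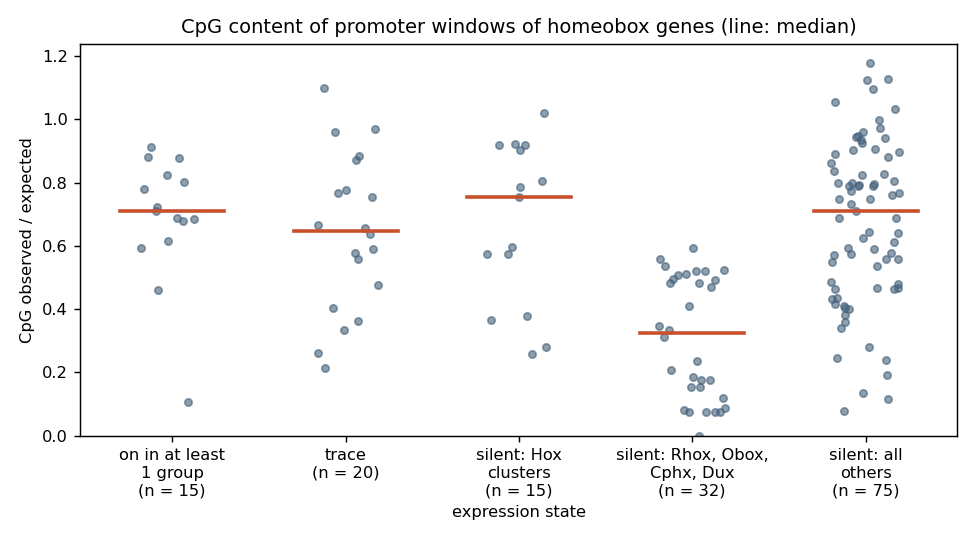
Ratio of observed to expected CpG (y axis) in the 300-base promoter windows of 157 homeobox genes, grouped by expression state (x axis), with a point per gene and a line at the median. The medians are 0.71 for members on in at least 1 group, 0.65 for trace, 0.75 for silent Hox cluster genes, 0.32 for silent Rhox, Obox and Cphx genes and 0.71 for the other silent genes. The label of the fourth group also names Dux, but no Dux gene had a window.

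Short motifs were searched on both strands of the same windows. TATAAA, the TATA box, was in 13.3% of the windows of members on in at least 1 group and in 13.6% of all windows. CCAAT, read by NF-Y, was in 33.3% and 37.4%, and GGGCGG, the GC box read by SP1, in 66.7% and 35.7%. Those on members were only 15, and their median GC content was 67.3%, beside 52.7% for all windows. Over all 157 member windows CCAAT was in 50.3% and GGGCGG in 46.5%. The site of Hox and PBX proteins together, searched as TGATTNAT, was in 2.55% of the 157 member windows and 3.22% of all windows. The homeodomain core TAATTA was in 4.46% and 5.29%. Neither was in a window of the 15 on members. A match describes letters in a window and shows no binding.

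Chromatin regulators of Hox genes were read from the same test as the other genes of the pathway. Of 68 listed, 63 were tested, with 19 higher (30.2%, beside 26.4% of all genes tested), 17 lower (27.0%, beside 26.8%) and a median log2 fold change of -0.02, beside -0.01 over all genes. The balance moved with the scaling, to 13 higher and 24 lower of 66 under TPM scaling and 14 and 24 of 63 under scaling by assigned reads, as it did over all genes. Without SAHH-KO replicate 1, 12 were higher. Among 12 tested PRC2 genes, the writers of lysine 27 methylation and their cofactors, 3 rose and 5 fell, and 3 and 6 under both other scalings. The writer Ezh2 fell, with 6.14, 7.66 and 6.64 FPKM in control and 3.23, 3.81 and 3.68 FPKM in SAHH-KO (log2 fold change -0.77, adjusted p = 0.000379), and its accessory Phf19, which guides PRC2 to chromatin, fell as well, with 6.59, 5.85 and 6.23 FPKM against 1.67, 1.79 and 1.75 FPKM (log2 fold change -1.40, adjusted p = 6.06e-06). The 3 that rose were the Ezh2 paralogue Ezh1 (log2 fold change 0.41, adjusted p = 0.00484), Jarid2 (0.55, adjusted p = 0.00168) and Aebp2 (0.91, adjusted p = 0.000274). Of 20 tested PRC1 genes 8 rose and 4 fell, but 4 rose and 7 fell under both other scalings. Within this group the alternative subunits Pcgf5 and Pcgf6 changed in opposite directions, each having passed the FPKM filter only through the group where it was high, as did 4 of the 63 regulators in all. Pcgf5 was at 0.577, 0.715 and 0.576 FPKM in control and 3.29, 2.85 and 2.81 FPKM in SAHH-KO (log2 fold change 1.30, adjusted p = 2.09e-05). Pcgf6 was at 6.603, 6.835 and 6.372 FPKM against 0.745, 0.689 and 0.527 FPKM (log2 fold change -2.20, adjusted p = 9.42e-07).

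On the activating side, 5 of 19 tested MLL-complex genes rose and 3 fell, while 4 rose and 6 fell of 20 under TPM scaling and 5 and 6 under scaling by assigned reads. Kmt2a, the MLL1 methyltransferase, rose, with 4.87, 4.05 and 3.83 FPKM in control and 6.23, 5.54 and 6.72 FPKM in SAHH-KO (log2 fold change 0.45, adjusted p = 0.00792). Of 6 demethylase genes 3 rose and none fell (2 and none under both other scalings), among them Kdm5b, which removes lysine 4 methylation, with 1.19, 1.23 and 1.24 FPKM in control and 4.23, 3.49 and 3.88 FPKM in SAHH-KO (log2 fold change 1.13, adjusted p = 3.17e-05). Of 6 genes for CTCF and cohesin-type insulator factors 5 fell and none rose under all 3 scalings. Over all genes tested, 26.4% were higher and 26.8% lower in the FPKM test. The shares over all genes were 18.2% and 33.8% under TPM scaling, and 19.5% and 37.9% under scaling by assigned reads. Whether the levels of these regulators bear on the Hox genes was not tested.

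Homeodomain genes under other family labels, such as the POU, CUT, PAX and TSHZ genes, were read beside the members. Of 37 listed, 21 were silent in both groups (56.8%, beside 69% of all genes and 43.3% of protein-coding genes). Of 8 tested 5 were higher and 1 lower (62.5% and 12.5%, beside 26.4% and 26.8% of all genes tested), but 3 and 2 of 9 under TPM scaling and 2 and 2 of 8 under scaling by assigned reads. Pou2f2, a POU factor of B cells, was at 8.32, 6.18 and 6.45 FPKM in control and 11.3, 10.0 and 10.4 FPKM in SAHH-KO (log2 fold change 0.54, adjusted p = 0.00422). It was called higher. Smaller changes were called for Zeb2 (0.28, adjusted p = 0.0278), Adnp2 (0.27, adjusted p = 0.0233) and Tshz1 (-0.39, adjusted p = 0.0164), and each of these 3 lost its call when single libraries were left out, at 0.24 to 0.31 for Zeb2, 0.23 to 0.29 for Adnp2 and -0.40 to -0.35 for Tshz1. Zeb2 and Adnp2 also lost it under TPM scaling, at 0.14 and 0.13. Without single libraries the count of these genes called higher went down to 2 and that called lower to 0.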

How the data were processed

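The authors deposited 1 table of FPKM values with a column per library, on GRCm38 (mm10). The submitters' processing notes name STAR, featureCounts, FastQC and Trim Galore without versions. Strand and multi-mapping settings, and how counts became FPKM, are not stated there. FPKM times gene length gave whole multiples of 1 step per library (100% of values whole within 0.01 reads), from which reads were recovered. A value of 3 reads served as the floor, which for a gene of 1 kb is 0.168 to 0.197 FPKM and covers counting error only.

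The main test was limma 3.58.1 in R 4.3.3 on log2(FPKM + 1) with a trend, two-sided, with Benjamini-Hochberg adjustment over all 10362 genes that had at least 1 FPKM in at least 3 libraries, and 0.05 as the threshold. A second fit used limma's voom on recovered reads, with the library sizes implied by the FPKM, so it shares the FPKM scaling. Those sizes were above the assigned reads in each control library and below them in each SAHH-KO library. Adjusted p-values come from these fits. An exact test of 3 against 3 libraries cannot go below p = 0.1 for a single gene. Count tests planned for raw counts were not run on these FPKM values. Both fits were first tested on simulated data. Changes were simulated only in genes with a control mean above the filter level of 1 FPKM, so members at low level were not covered.

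Genes named are Ahcy, members on, called, gained or lost, the 10 trace members with most reads, Hox cluster genes with any read, up to 4 called genes per list, and Ezh2, Kmt2a and Zeb2. Others are examples of silent members or were chosen for their values. Members and lists were chosen with earlier results of these data known. Alternatives tried are another pseudocount, other filters and thresholds, other scalings, a replicate block and leaving out single libraries. Homeobox classes follow a hand-made list of gene names. All 232 identifiers are in GENCODE M21, 229 with equal coordinates. Some members and list genes that the rule names are not reported here, and counts still include them.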

Additional observations from a re-analysis of the deposited data

How the results depend on the processing

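Equally numbered libraries did not deviate together in every pair (correlations of 0.095, 0.101 and -0.006 between the groups), so the numbers were not taken to pair the samples. The replicate block left 9 members higher and 3 lower, gave 17 and 19 chromatin regulators and 5 and 1 other homeodomain genes, and changed no call of a named gene. With no filter 16 members were higher, with a filter of 0.1 FPKM 17, with TPM scaling 14 and with voom 17, since these fits test more or other genes. Leaving out single libraries gave 1 to 3 members lower (1 without control replicate 3), 12 to 23 regulators higher (12 without SAHH-KO replicate 1) and, for the other homeodomain genes, 2 to 5 higher and 0 to 1 lower. Those genes had 3 higher and 2 lower under TPM scaling, 2 and 2 under scaling by assigned reads (chosen after seeing the data), and 0 lower with no filter, 2 at 0.1 FPKM and 3 with voom. TPM scaling and scaling by assigned reads shifted all genes by -0.16 and -0.14 on the log2 scale. Under them Zhx1 turned to -0.12 and -0.11 and Irx2 to -0.15 and -0.14. Uncalled differences also turned when 1 library was left out, with ranges of -0.064 to 0.14 for Zhx1, -0.086 to 0.11 for Irx2, -0.085 to 0.032 for Hhex, -0.13 to 0.027 for Meis3 and -0.041 to 0.25 for Isl2. On in both rose to 31 and gained to 11 at 0.1 FPKM. Lost fell to 1 at 0.5 FPKM, at 0.1 FPKM, when all 3 libraries had to reach the level and under TPM scaling, and ranged from 1 to 3 when a library was left out (1 without control replicate 1). The cause was not tested. Levels under 3 reads per library were not detectable.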

Other observations

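Rhox5 carries no family label in the deposited table and so is not among the 232 members. It was chosen for mention after its values were seen. Rhox5, the founding gene of the Rhox cluster, was at 3.01, 2.19 and 2.89 FPKM in control and 0.797, 1.05 and 0.862 FPKM in SAHH-KO, a log2 fold change of -0.95 (SE 0.120, adjusted p = 0.000290) with no overlap between the groups, while the 33 labelled Rhox genes had 2 reads in all. Pou6f1, under the POU label and also chosen after its values were seen, was at 0.189, 0.123 and 0.113 FPKM in control and 1.65, 0.794 and 0.907 FPKM in SAHH-KO, with a log2 fold change of 2.92 (SE 0.393, adjusted p = 3.37e-05) in the voom fit.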
